A study of Mus musculus with 6 samples.

Results

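Pawr, Colgalt2, Vmn2r29, Gas2l2 and Tlk1 are 5 mouse genes whose promoters held many positions of higher DNA methylation in pluripotent lines of both kinds, and mostly in germline stem cells too. They were chosen by those counts of hyper positions, so the counts below describe the choice and support nothing. The gene table of the mouse genome holds 34631 genes, and the promoters of 27026 of them could be searched. Every position listed within each gene's span and 5000 bp to each side was taken, which gave 153 of the 448072 positions listed in the series.

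The study asked whether cells reprogrammed with transcription factors keep an epigenetic memory of the cell they came from. It used cultured mouse lines of the OG2 strain, which carries a Pou5f1 reporter transgene. Induced pluripotent stem cells (iPSC, 2 independent lines) had been derived from germline stem cells with introduced factors, while the 2 independent gPSC lines are pluripotent stem cells that also derive from the germline. Germline stem cells (GSC, 1 line) are the cultured counterpart of spermatogonial stem cells, and embryonic stem cells (ESC, 1 line) complete the 6 libraries. The labels give neither the passage nor the factors used, and each library comes from a single cell line. GSC and ESC have no second line, so nothing was tested against either.

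Methylation was read by reduced representation bisulfite sequencing, which samples CpG-rich restriction fragments. For each of the 5 libraries other than ESC, the deposited tables list single positions whose methylation was called higher (hyper) or lower (hypo) than in a reference library. The tables do not name that library, and it is taken here to be ESC, the only sample without tables. Each position carries a difference in percentage points, the library minus the reference. Only called positions are listed, so a position missing from a table was either unchanged or not read there. The tables hold no coverage, so the depth is unknown. The libraries listed between 118235 and 211853 hyper positions and between 20470 and 43836 hypo positions, with the most of each in GSC.

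Methylated cytosine in mammals sits mostly in CpG pairs, and it is copied to the new strand after replication, so both strands of a CpG normally carry it together. CpG islands at gene starts are usually free of it, while a methylated island goes with a silent promoter. Germ cells and pluripotent cells differ in where they place the mark, since the germline removes and rewrites it during development.

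The 5 genes share no pathway. Pawr encodes Par-4, a pro-apoptotic protein that binds the Wilms tumour protein and atypical protein kinase C. Colgalt2 encodes a galactosyltransferase that adds galactose to hydroxylysines of collagen. Vmn2r29 belongs to the type 2 vomeronasal receptors, a large family of G protein-coupled receptors of the pheromone-sensing organ. Gas2l2 encodes a protein that links actin filaments and microtubules, and Tlk1 a Tousled-like kinase that acts on the histone chaperone Asf1 during chromatin assembly.

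Sequence directly before the start is shown for 3 of the genes, from RefSeq in GRCm38.p6, because it shows which strand carried the listed positions in Vmn2r29 and how differently CpG-rich the promoters are. In Vmn2r29, chr7:7278290-7278539 on the minus strand, capitals mark the bases listed as hyper in any library. In Pawr, chr10:108331939-108332188 on the plus strand, and in Gas2l2, chr11:83429522-83429771 on the minus strand, capitals mark every CpG, since neither stretch holds a listed position.
Vmn2r29: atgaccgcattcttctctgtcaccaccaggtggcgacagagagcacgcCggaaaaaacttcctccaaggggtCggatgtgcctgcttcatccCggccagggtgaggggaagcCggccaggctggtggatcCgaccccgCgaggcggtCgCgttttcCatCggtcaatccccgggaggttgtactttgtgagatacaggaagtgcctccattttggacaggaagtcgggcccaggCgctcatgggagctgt
Pawr: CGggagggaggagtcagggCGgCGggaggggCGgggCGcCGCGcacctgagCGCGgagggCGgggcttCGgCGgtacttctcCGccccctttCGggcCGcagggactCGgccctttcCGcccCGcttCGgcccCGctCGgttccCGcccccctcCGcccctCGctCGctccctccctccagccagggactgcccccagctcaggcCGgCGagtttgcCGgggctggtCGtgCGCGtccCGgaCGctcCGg
Gas2l2: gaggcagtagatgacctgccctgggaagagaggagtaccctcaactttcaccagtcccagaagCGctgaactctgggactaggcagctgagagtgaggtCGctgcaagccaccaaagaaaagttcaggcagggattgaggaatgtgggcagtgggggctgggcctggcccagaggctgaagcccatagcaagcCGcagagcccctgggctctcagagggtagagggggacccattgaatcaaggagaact

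The Vmn2r29 stretch of 250 bases holds 17 CpG and 4 sites of CCGG, the recognition sequence usually cut in this assay, searched as these letters, which read the same on both strands. It carries 14 listed positions, of which 11 were hyper and 3 hypo. Including one further position 21 bp inside the gene, all 11 hyper positions in a CpG were the G on the plus strand, which is the cytosine of the gene's own minus strand. The 3 hypo positions were all plus-strand cytosines. The remaining hyper position, at 7278383, is a G outside any CpG. Such a split by strand was common in the series. Of 1190 promoter sequences of 300 bases with at least 5 hyper CpG positions, 74.4% had them all on 1 strand, and of the 998 that also held a hypo position, 60.4% had hyper and hypo on opposite strands. Where both strands of 1 CpG were listed in the same library, they had opposite directions in 99.2% to 99.5% of pairs in the 4 lines and in 96.8% in GSC. How the strands were handled in each library and in the reference is not given, and its part in the differences of the 5 genes was not tested. In an alternative, positions with an opposite one within 50 bp in the same library were left out. All 5 promoters were then called hyper in both iPSC lines and both gPSC lines, and 4 of 5 in GSC. Vmn2r29 then had 1 position hyper in all 4 lines. This filter also removes hypo positions that count against a call, and over all promoters the calls in GSC rose from 1149 to 1217. It can also keep hyper positions whose other strand was not listed. It therefore cannot show what part the handling of strands had.

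Within 300 bases around the annotated start, Pawr had 36 CpG, Vmn2r29 23 and Gas2l2 3, against a median of 7 over 32851 promoter sequences. More CpG than in 93.8% of promoters were therefore found at Pawr, more than in 78.5% at Vmn2r29 and more than in 23.3% at Gas2l2. The RefSeq table holds 2 promoters of Tlk1, both starting inside the span used here, with 55 and 32 CpG, more than in 99.7% and 90.5% of promoters. A second promoter of Vmn2r29, farther inside the gene, had 0 CpG and 0 CCGG. At least 1 CCGG was present in 52.8% of all promoters, in those of Pawr and Tlk1 and in the outer one of Vmn2r29, but these letters were not found in the window of Gas2l2. The outer promoters of the 4 genes with a sequence thus ranged from below the median to near the top in CpG content.

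A promoter was defined as 2000 bp before to 500 bp after the start, and was called hyper when it held at least 3 hyper positions making up at least 80% of its listed positions. Of 7198 promoters with at least 3 positions listed in any table, 3.36% were called hyper in both iPSC lines, 4.14% in both gPSC lines, 16.0% in GSC and 1.39% in all 5 libraries. All 5 genes were called in both iPSC lines and in both gPSC lines, which the choice of members used. In GSC, 4 of the 5 were called, and Tlk1 was not. Its promoter had 1 hyper and 1 hypo position in GSC. The working description of the genes as hypermethylated in GSC and all lines therefore held for Pawr, Colgalt2, Vmn2r29 and Gas2l2, while Tlk1 was hypermethylated in the lines without a call in GSC. The calls depended on the size required. Counting only differences of at least 50 points, 3 of the 5 promoters were called in both iPSC lines, 2 in both gPSC lines, 2 in GSC and 1, that of Vmn2r29, in all 5 libraries. With every listed position required to be hyper, 3 were called in both iPSC lines, 3 in both gPSC lines, 2 in GSC and 1, that of Colgalt2, in all 5 libraries.

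**Figure D1:**
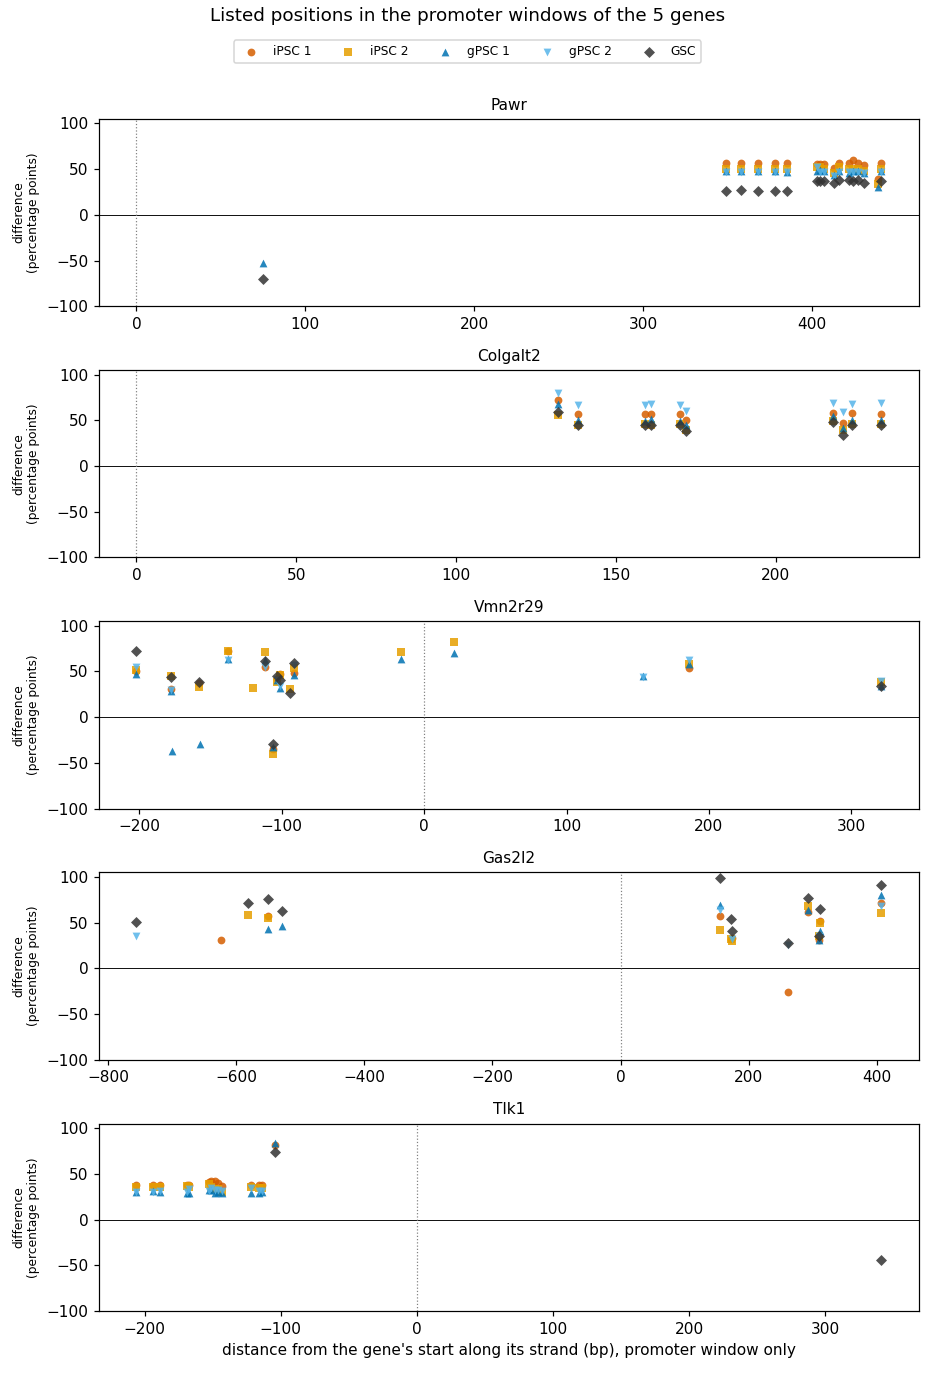
Difference in percentage points (library minus reference) of each listed position in the promoter windows of the 5 genes, by distance from the gene's start along its strand in bp. Each marker is 1 position in 1 library. The dense clusters hold 16 positions in Pawr, 10 in Colgalt2 and 14 in Tlk1, and GSC is at 25.7 to 37.8 points in Pawr, below every line at the positions hyper in all 5 libraries.

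The hyper positions of the Pawr promoter lay in 1 tight run of 16 within 93 bp, 349 to 441 bp after the start (chr10:108332538-108332630). The deposited annotation places the run in an intron within the promoter. A predicted gene on the opposite strand, Gm40755, spans it as well, so a promoter of Pawr and a gene body of Gm40755 cannot be told apart there. The run averaged 54.9 points in iPSC 1, 49 in iPSC 2, 46.3 in gPSC 1, 47.3 in gPSC 2 and 33.1 in GSC. Its positions ranged from 39.6 to 60.4 points in iPSC 1, from 33.3 to 52.2 in iPSC 2, from 31 to 48.8 in gPSC 1, from 42.8 to 52.6 in gPSC 2 and from 25.7 to 37.8 in GSC. The GSC range lay below those of iPSC 1 and gPSC 2, and overlapped those of iPSC 2 and gPSC 1 only through a single position that GSC did not list.

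At the 15 positions of the Pawr run that were hyper in all 5 libraries, every line stood above GSC in 15 of 15. Over the whole series, every line stood above GSC at 5.38% of the 31103 positions hyper in all 5 libraries, and every line stood below GSC at 56.6%. Neighbouring positions are read on the same fragments, so the 15 are close to 1 observation. GSC had a pair of levels along the run. On the side near the start, 5 positions were 56.2 points in iPSC 1, 50 in iPSC 2, 46.9 to 47.7 in gPSC 1, 47.4 in gPSC 2 and 25.7 to 27.1 in GSC. On the far side, 10 positions averaged 55.8 points in iPSC 1, 50 in iPSC 2, 47.2 in gPSC 1, 47.3 in gPSC 2 and 36.6 in GSC. The lines were thus level across the run, while GSC was about 26 points on one side and 36.6 on the other.

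The calls in the Pawr run were strong in all libraries, with a median −log10 of the deposited q-value of 11.3 in iPSC 1, 9.41 in iPSC 2, 12.4 in gPSC 1, 5.88 in gPSC 2 and 8.1 in GSC. The remaining listed position of the promoter, 75 bp after the start, was hypo, at −52.6 points in gPSC 1 and −70.6 in GSC, and was not listed in the other libraries.

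Away from its promoter, Pawr had an intronic position 13184 bp from the start that was hyper in all 5 libraries, with 29.8 points in iPSC 1, 27.4 in iPSC 2, 70.5 in gPSC 1, 43.8 in gPSC 2 and 91.1 in GSC. Here GSC was the highest and both iPSC lines were below both gPSC lines, the reverse of the order in the run. A position 43 bp further on showed 32.9 points in iPSC 1 and 27.2 in iPSC 2, and 50.2 in gPSC 1 and 48.9 in gPSC 2, and was not listed in GSC. Beyond the 3′ end, within the span of the lncRNA Gm36283, a position 85261 bp from the start had 53.5 points in iPSC 1 and 77.8 in iPSC 2, 89.6 in gPSC 1, and 100 in GSC, and was not listed in gPSC 2. Gm23105, a small nucleolar RNA gene within Pawr, held no listed position. Of 40 positions listed around Pawr, 34 were hyper and 6 hypo in at least 1 library, and 12 of the hyper ones were hyper in a single library.

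In Colgalt2 every listed position of the promoter window had the same call in every library. Its 10 listed positions, 132 to 233 bp after the start (chr1:152399937-152400038, annotated by the authors as exon and promoter), were hyper in all 5 libraries, and none was hypo. They averaged 57.1 points in iPSC 1, 45.7 in iPSC 2, 51.1 in gPSC 1, 67.4 in gPSC 2 and 45 in GSC. The position nearest the start was the highest in each library, with 71.7 points in iPSC 1, 55.5 in iPSC 2, 68.2 in gPSC 1, 80.4 in gPSC 2 and 59.3 in GSC. At that position the reference can have been methylated to 19.6% at most, since no library can exceed full methylation.

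In the Colgalt2 run, gPSC 2 was the highest and the iPSC lines lay on both sides of gPSC 1, so lines of 1 kind differed from each other by more than the kinds did. Every line stood above GSC at 7 of the 10 positions, against 5.38% of the 31103 positions hyper in all 5 libraries over the series. The 10 lie in a single run and are close to 1 observation, so their count cannot be weighed against that share. The margin was also small in iPSC 2, which averaged 45.7 points against 45 in GSC. Median −log10 q was 15.9 in iPSC 1, 12.9 in iPSC 2, 18.2 in gPSC 1, 20.5 in gPSC 2 and 15.5 in GSC, in each library the highest among the leading runs of the 5 genes.

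Further along the Colgalt2 body, listed positions were intronic singles or pairs within 100 bp. One, 9717 bp from the start, had 52.3 points in iPSC 1, 48.6 in iPSC 2, 82.4 in gPSC 1, 83.7 in gPSC 2 and 83.2 in GSC, so that both gPSC lines were at the GSC value and both iPSC lines lay well below it. Another, 97804 bp from the start, had 59.7 points in iPSC 1, 61 in iPSC 2, 66.8 in gPSC 1, 64.5 in gPSC 2 and 84.2 in GSC, above all lines. The body positions of GSC averaged 89.6 points over its 5 hyper ones, against 45 in its promoter run. The pseudogene Gm15618 within the gene held none. A position 46819 bp from the start was hypo, at −72.7 points in gPSC 2 and −75 in GSC. Another, 726 bp from the start, was hypo in gPSC 1 only, at −25.9 points. The authors annotated it as intron and promoter, but it lies outside the promoter window used here.

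**Figure D2:**
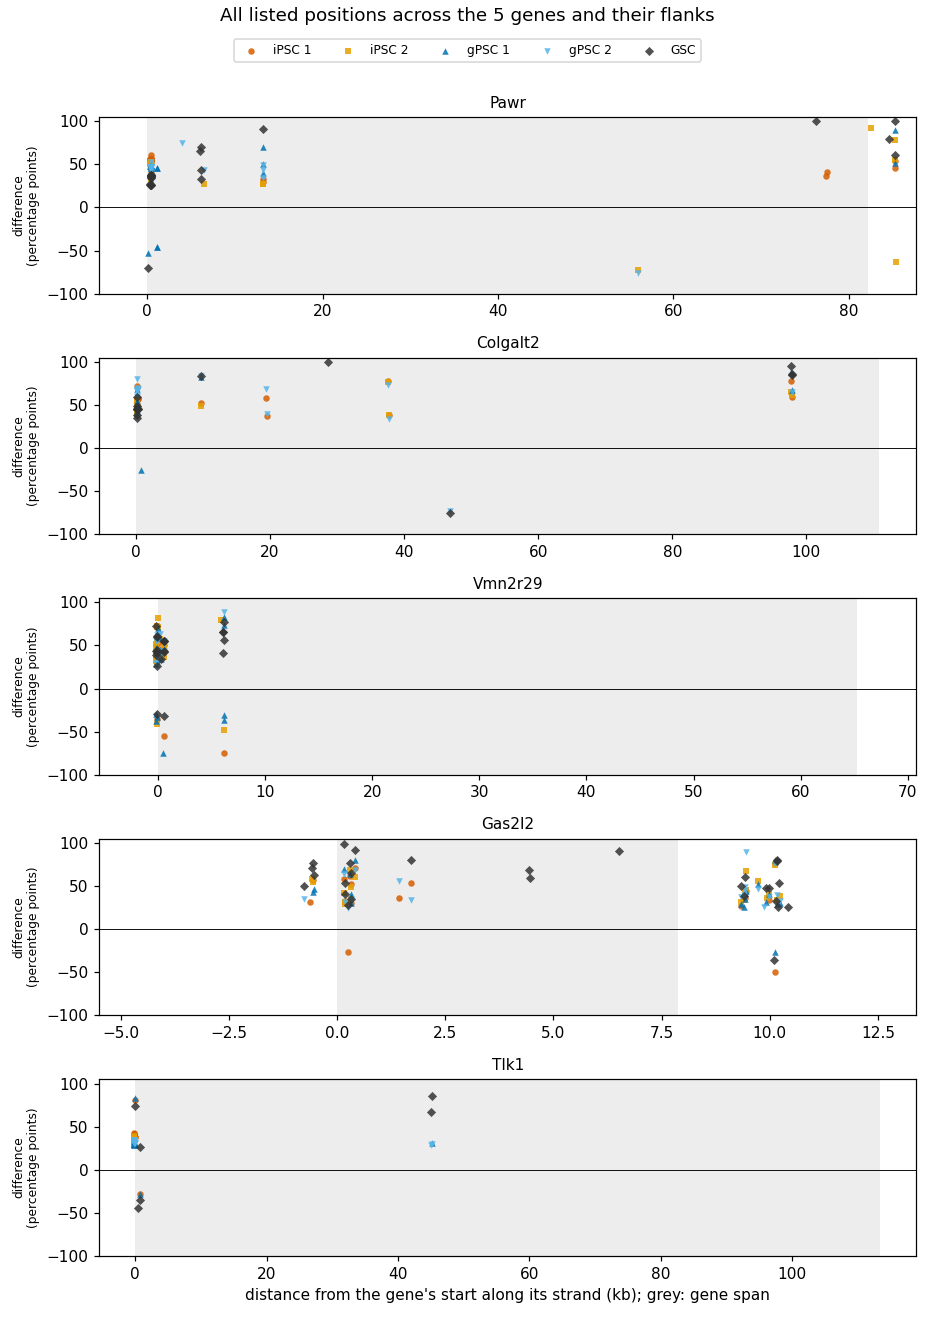
Difference in percentage points of all 153 listed positions, by distance from each gene's start along its strand in kb, with the gene span in grey and 5 kb drawn to each side. Listed positions cluster near the start of each gene, with a further 21 downstream of Gas2l2, none lies in the flank upstream of a promoter window, and none of Vmn2r29 lies farther than 6149 bp into the gene.

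Vmn2r29 had its listed positions spread over both sides of the start, and they varied more than in Pawr or Colgalt2. The run of 12 hyper positions spanned 224 bp, from 21 bp after to 202 bp before the start (chr7:7278268-7278491). It held 8 hyper positions in iPSC 1, 12 in iPSC 2, 9 in gPSC 1, 7 in gPSC 2 and 8 in GSC, and 6 of these were hyper in all 5 libraries. The means were 47.8 points in iPSC 1, 52.5 in iPSC 2, 50.6 in gPSC 1, 47.6 in gPSC 2 and 48.5 in GSC, which differed by less than the SD over positions within any library, of up to 17.9 points.

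The position 202 bp before the Vmn2r29 start, nearest the 5′ end of the sequence above, had 50 points in iPSC 1, 51.5 in iPSC 2, 47.2 in gPSC 1, 54.8 in gPSC 2 and 72.2 in GSC. GSC stood above all lines there, as at 3 of the 6 positions hyper in all 5 libraries, and no position had every line above GSC. Over the series, every line stood below GSC at 56.6% of such positions and above GSC at 5.38%. The 6 lie in a single run, so their counts cannot be weighed against these shares. The position 112 bp before the start had 54.4 points in iPSC 1, 71.7 in iPSC 2, 62.4 in gPSC 1, 55 in gPSC 2 and 61.4 in GSC, with GSC inside the range of the lines. Positions 16 bp before and 21 bp after the start were listed in iPSC 2 and gPSC 1 only, at 71.3 and 81.8 points in iPSC 2 and at 63.2 and 70.7 points in gPSC 1.

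The hypo position of Vmn2r29 found in most libraries, 106 bp before the start, had −35 points in iPSC 1 and −40.6 in iPSC 2, −32.8 in gPSC 1, and −29.4 in GSC. It lies between hyper positions 103 and 112 bp before the start, on the other strand. In gPSC 1 the CpG at 177 and 178 bp before the start had both strands listed, with −37.1 points on the plus strand and 28.3 on the minus strand. Deeper in the body, 6146 to 6149 bp from the start, hyper and hypo positions alternated base by base, with 73.6 and 82.6 points in gPSC 1 beside −36.1 and −31.2 points in the same library. A separate group of 5 hyper positions 521 to 598 bp after the start averaged 50 points in iPSC 1 and 44.3 in iPSC 2, 50.2 in gPSC 2, and 50.5 in GSC, and had no hyper position in gPSC 1. The neighbouring genes Zfp772 and Clcn4 and the pseudogene Gm18190 held no listed position inside the window.

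Gas2l2 had the fewest positions hyper in all 4 lines, 7 over the gene and its flanks. Its leading run held 8 hyper positions over 252 bp, 156 to 407 bp after the start (chr11:83429114-83429365), of which 3 were hyper in all 5 libraries. The run averaged 48.2 points in iPSC 1, 45.2 in iPSC 2, 57 in gPSC 1, 44.9 in gPSC 2 and 61.2 in GSC, with an SD over positions between 14.8 and 26.5.

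GSC had the highest mean in the leading run of Gas2l2. The position 156 bp after the start had 57.7 points in iPSC 1, 42.1 in iPSC 2, 69.4 in gPSC 1, 64.3 in gPSC 2 and 99.1 in GSC, which leaves the reference at most 0.877% methylated there. The position 407 bp after the start had 71 points in iPSC 1, 60.4 in iPSC 2, 80.3 in gPSC 1, 68.1 in gPSC 2 and 91.7 in GSC. Every line stood below GSC at 4 of the 5 positions hyper in all 5 libraries. Over the series, 56.6% of such positions had this order. Of the 4, 2 lay in the promoter, among its 3 such positions, and 2 in the downstream flank. The exception, 310 bp after the start, had 30.5 points in iPSC 1, 35.3 in iPSC 2, 30.5 in gPSC 1, 35.3 in gPSC 2 and 35.3 in GSC, so 3 libraries shared 1 value at this precision.

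Beside the run, 21 of the 40 positions listed around Gas2l2 lay downstream in Rasl10b, a gene of the Ras-like family whose span ends close by, and belong to Gas2l2 only through the 5000 bp flank. They held 19 of the 37 hyper positions, 4 of the 7 hyper in all lines and 2 of the 5 hyper in all 5 libraries. Adjacent positions 1 bp apart were listed together in 9 cases over the libraries in the Gas2l2 window, with the same direction in 7 and opposite directions in 2. In the windows of Pawr, Vmn2r29 and Tlk1, 8 of 10 such pairs had opposite directions, and Colgalt2 had none. Pairs were counted once per library, so a site can recur and the pairs are not separate observations. The same-direction pairs of Gas2l2 all lay at 310 and 311 bp or at 173 and 174 bp after the start. Adjacent hyper positions 310 and 311 bp after the Gas2l2 start had 30.5 and 52 points in iPSC 1, 35.3 and 49.1 in iPSC 2, 30.5 and 40.8 in gPSC 1, and 35.3 and 64.7 in GSC.

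Tlk1 differed from the other 4 genes in GSC. Its run of 14 hyper positions covered 103 bp, 104 to 206 bp before the start of the span (chr2:70825920-70826022). Of these, 13 were hyper in all 4 lines, and all 13 were unlisted in GSC. Over the series, 14.4% of the 36329 positions hyper in all 4 lines were unlisted in GSC. Neighbouring positions are read on the same fragments, so the 13 are close to 1 observation. At the 13 positions the mean difference was 38.7 points in iPSC 1 and 35 in iPSC 2, and 30.1 in gPSC 1 and 31.8 in gPSC 2, and neighbouring positions were nearly equal. The lowest and highest were 36.3 and 42.1 points in iPSC 1, 30.6 and 39.3 in iPSC 2, 28.8 and 32.8 in gPSC 1, and 30.6 and 34.3 in gPSC 2.

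In each line the Tlk1 run had the smallest mean difference among the leading runs of the 5 genes, and weaker calls than those of Pawr, Colgalt2 and Vmn2r29. Median −log10 q was 4.77 in iPSC 1 and 4.09 in iPSC 2, and 3.64 in gPSC 1 and 2.88 in gPSC 2, and the largest q in gPSC 2 was 7.18e-03, close to the bound of 0.01 that every listed position met. The 14th position of the Tlk1 run, 104 bp before the start, behaved otherwise, with 81.1 points in iPSC 1, 83.7 in gPSC 1 and 74.1 in GSC, and was not listed in iPSC 2 or gPSC 2. GSC was therefore read at this position, within 10 bp of positions at which it had no call. Whether GSC was read at those positions cannot be told, since depth is unknown. In the gene body, 45191 bp from the start, GSC was the highest, with 31.1 points in gPSC 1, 30.3 in gPSC 2 and 85.6 in GSC, and no iPSC line listed. A position 673 bp after the start was hypo, at −28.2 points in iPSC 1, −28.4 in gPSC 1 and −35.4 in GSC. The lncRNA Gm38528, at the far end of the gene, held no listed position.

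**Figure D3:**
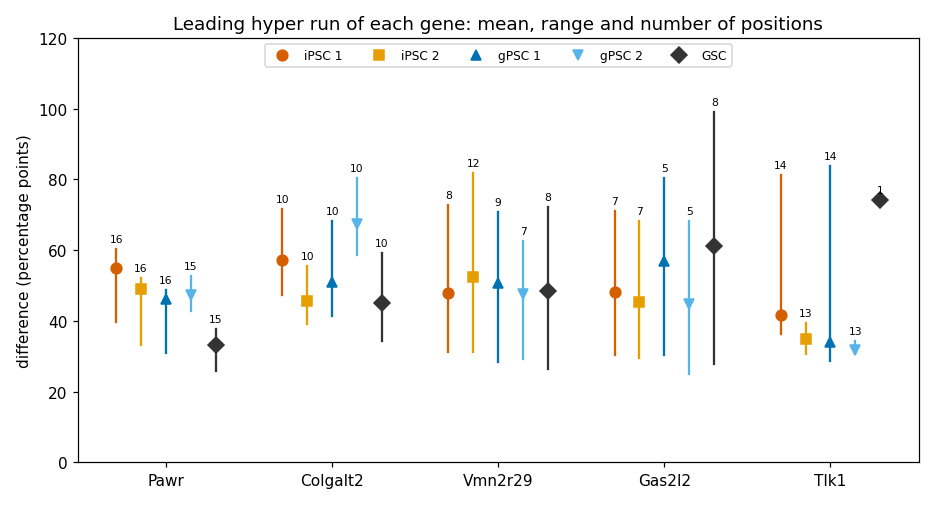
Leading hyper run of each gene: the marker is the mean difference in percentage points over the hyper positions of a library, the line runs from the lowest to the highest position, and the number above is how many positions were hyper. GSC is lowest in Pawr at 33.1 points, is close to the lines in Vmn2r29 at 48.5, is highest in Gas2l2 at 61.2, and has 1 position of 14 in Tlk1.

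The choice of the genes did not use the size of the differences of iPSC lines relative to gPSC lines, so this was tested, with the line as the replicate. Positions hyper in all 4 lines were averaged in each line. For 2 lines against 2, a two-sided exact permutation test cannot give a p below 0.333, so no test could pass 0.05. Values were adjusted by Benjamini-Hochberg over 10 tests, of which the 5 on numbers of hyper positions are given below without a p, since such numbers chose the genes.

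At the 13 shared positions of Tlk1, the iPSC lines averaged 36.8 ± 2.63 points and the gPSC lines 30.9 ± 1.2 (SD, n = 2 lines each), and the lines of the 2 kinds did not overlap. The difference was 5.88 points, with the smallest p the exact permutation test allows, 0.333 (adjusted 0.833). Both iPSC lines were above both gPSC lines at 12 of the 13 positions, against 7.88% of the 36329 positions hyper in all 4 lines over the series. The opposite order, both iPSC lines below both gPSC lines, held at 27.9% of them and at none of the 13. Since the 13 are close to 1 observation, their counts cannot be weighed against shares over the series.

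At the 17 shared positions of Pawr, the iPSC lines averaged 50.2 ± 4.03 points and the gPSC lines 48 ± 1.18 (SD, n = 2 lines each), a difference of 2.17 points with overlapping lines (exact permutation p = 0.667, adjusted 0.952). The mean joined opposite orders. Both iPSC lines were above both gPSC lines at 14 of the 15 promoter positions and below them at both body positions. The 15 lie in a single run and are close to 1 observation. With the promoter alone, the difference was 5.66 points and the lines did not overlap (exact permutation p = 0.333). Without iPSC 1 the difference over all 17 positions was −0.676 points.

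Vmn2r29 had 52.4 ± 3.43 points in iPSC lines and 48.5 ± 1.5 in gPSC lines at 8 shared positions (SD, n = 2 lines each), a difference of 3.87 points without overlap (exact permutation p = 0.333, adjusted 0.833). Averaged over all hyper positions of each line instead, the difference was −1.97 points. Colgalt2 had 52.1 ± 6.87 points in iPSC lines and 61.7 ± 9.55 in gPSC lines at 12 shared positions (SD, n = 2 lines each), a difference of −9.65 points that was within the spread of the lines (exact permutation p = 0.667, adjusted 0.952). Gas2l2 had 49.4 ± 1.18 points in iPSC lines and 55.8 ± 3.38 in gPSC lines at 7 shared positions (SD, n = 2 lines each), a difference of −6.43 points without overlap (exact permutation p = 0.333, adjusted 0.833). The median of this difference over all positions hyper in all 4 lines was −3.27 points, so Pawr, Vmn2r29 and Tlk1 lay above it and Colgalt2 and Gas2l2 below.

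**Figure D4:**
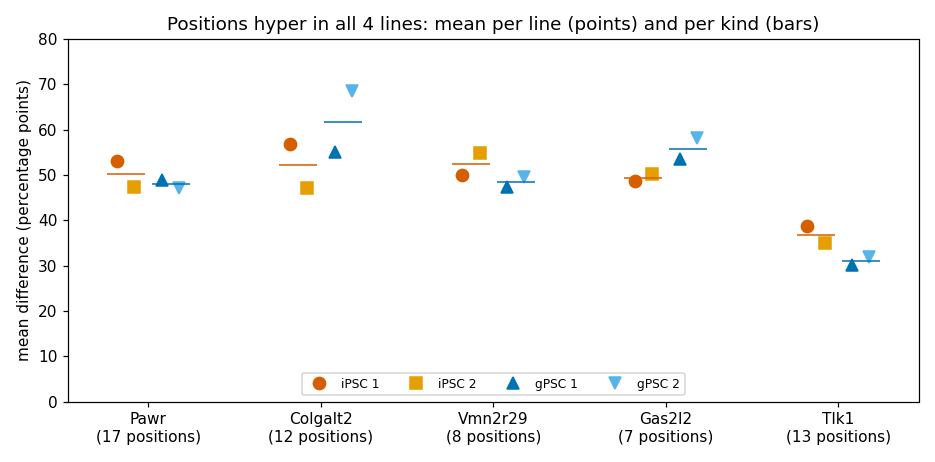
Mean difference in percentage points at the positions hyper in all 4 lines, per line (markers) and per kind (bars), with the number of positions under each gene. The iPSC lines lie above the gPSC lines in Tlk1 (36.8 against 30.9 points) and Vmn2r29 (52.4 against 48.5). They lie below the gPSC lines in Gas2l2 (49.4 against 55.8) and overlap with them in Pawr and Colgalt2. Of the 7 positions under Gas2l2, 4 lie in Rasl10b, where the lines overlap.

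The numbers of hyper positions, over each gene and its flanks, are a description. Pawr had 22 in iPSC 1 and 22 in iPSC 2, and 23 in gPSC 1 and 20 in gPSC 2, beside 24 in GSC. Colgalt2 had 17 in iPSC 1 and 15 in iPSC 2, and 13 in gPSC 1 and 16 in gPSC 2, beside 15 in GSC. Vmn2r29 had 12 in iPSC 1 and 18 in iPSC 2, and 14 in gPSC 1 and 14 in gPSC 2, beside 19 in GSC, and iPSC 2 set its higher iPSC mean. Gas2l2 had 16 in iPSC 1 and 20 in iPSC 2, and 18 in gPSC 1 and 19 in gPSC 2, beside 27 in GSC. Tlk1 had 14 in iPSC 1 and 13 in iPSC 2, and 15 in gPSC 1 and 15 in gPSC 2, beside 4 in GSC. The lines of both kinds overlapped in every gene except Tlk1, in which both gPSC lines had more than either iPSC line.

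Set among all promoters, the 5 genes were mostly high in number of hyper positions, on which they were chosen, but not at the top. Tlk1 was not high in GSC. In iPSC 1, 34 promoters held more hyper positions than Pawr and 58 more than Tlk1. In gPSC 1, 49 promoters held more than Pawr and 88 more than Tlk1. Gas2l2 was passed by 467 promoters in gPSC 1 and 482 in gPSC 2. In GSC, 133 held more than Pawr, 274 more than Gas2l2, 537 more than Vmn2r29 and 3561 more than Tlk1.

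For each gene, the promoters whose counts of hyper positions over the 5 libraries were nearest, by the sum of absolute differences, were looked up. Nearest to Tlk1 was Klf11, encoding a Krüppel-like transcription factor, at a distance of 2 positions, with 14 hyper positions in iPSC 1 and 1 in GSC. Klf11 also had 14 hypo positions in iPSC 1 and 1 in GSC, so its mean difference over listed positions was −1.56 points in iPSC 1, against 41.7 in Tlk1. Second was Ywhag, a 14-3-3 protein gene, at a distance of 5, with 14 hyper and 15 hypo positions in iPSC 1. Hdgfl3, nearest to Pawr at a distance of 15, had 13 hyper and 14 hypo positions in iPSC 1, and Spint2, nearest to Colgalt2 at 6 and second for Vmn2r29 at 10, had 9 hyper and 8 hypo ones. The counts of these 4 promoters resembled the members', while their hypo counts did not.

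Other near promoters were mostly hyper. Ctnnd1, which encodes p120-catenin and was second to Pawr at a distance of 16, averaged 53.7 points in iPSC 1, 49.1 in iPSC 2, 52.5 in gPSC 1, 59.4 in gPSC 2 and 75.5 in GSC. Pbp2, a phosphatidylethanolamine-binding protein gene and second for both Colgalt2 at 8 and Gas2l2 at 5, averaged 56.6 points in iPSC 1, 39.6 in iPSC 2, 54 in gPSC 1, 45.8 in gPSC 2 and 65.3 in GSC. Krt72, a keratin gene nearest to Gas2l2 at 5, averaged 36 points in iPSC 1, 39.2 in iPSC 2, 50.4 in gPSC 1, 43.2 in gPSC 2 and 57.7 in GSC. The nearest to Vmn2r29 was Colgalt2, at a distance of 8. In Ctnnd1, Pbp2 and Krt72 GSC was the highest library, as in Gas2l2 and unlike in Pawr.

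Genes grouped with each of the 5 by function or by family were looked up too. They are set beside the shares of all promoters given above and the 11.2% of the 7198 promoters called hypo in GSC. Their numbers are too small to set apart from those shares. Of 20 partners and regulators of Pawr, 12 had a promoter with at least 3 listed positions, Pawr among them. Besides Pawr, the only call was a hyper one in GSC of Spsb1, a ubiquitin ligase adaptor, with 6 hyper and 1 hypo position and a mean of 43.1 points. Of 16 genes of collagen hydroxylation and glycosylation, 8 could be assessed. Besides Colgalt2, Plod3, a lysyl hydroxylase, was called hyper in GSC with 4 hyper and 1 hypo position and a mean of 36.7 points, and P4ha1, a prolyl hydroxylase subunit, was called hypo in GSC with 4 positions averaging −71.5 points.

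Of 124 vomeronasal type 2 receptor genes, only 2 had a promoter with enough listed positions, Vmn2r29 and Vmn2r69. Vmn2r69 was called hyper in both gPSC lines, averaging 52.1 points over 1 position in iPSC 1, 47.6 over 4 in iPSC 2, 63.2 over 3 in gPSC 1, 56.4 over 5 in gPSC 2 and 59.7 over 2 in GSC. Of 9 genes of the Gas2 and spectraplakin family and their end-binding partners, 2 could be assessed and Gas2l2 alone was called. Of 14 genes of Tousled-like kinases and chromatin assembly, 6 could be assessed. Asf1a, the histone chaperone that Tousled-like kinases phosphorylate, was called hyper in both iPSC lines, with 6 hyper positions averaging 68.5 points in iPSC 1 and 7 averaging 79.3 in iPSC 2. In gPSC 1 it had 7 hyper and 2 hypo positions, in gPSC 2 a single hypo one, and in GSC a single hypo one at −100 points. Rbbp4, a histone-binding subunit of chromatin assembly complexes, was called hypo in GSC with 1 hyper and 12 hypo positions averaging −42.4 points. In gPSC 1 it went the other way, with 13 hyper and 1 hypo position averaging 41.1 points, and gPSC 2 had 1 hyper position. The iPSC lines held 2 hypo positions (iPSC 1), and 3 hyper and 4 hypo positions (iPSC 2).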

How the data were processed

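Per the labels' protocols, a sequencing company prepared the libraries from kit-purified DNA of 6 cultured lines. Tools listed in the submitters' processing notes are methylKit, GATK, Bismark and Bowtie2, and the builds are GRCm38 and mm10. For versions, settings, coverage minimums and strand handling: not given in the sources used here. In all, 10 deposited tables (hyper and hypo for 5 libraries) give, for each single position, a p-value and a q-value computed by the authors. They also give the authors' deposited methylation difference in percentage points. Every listed position had a q-value of at most 0.01 and a difference of at least 25 points, and the strand column is the same throughout. Depth is unknown.

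Gene spans and promoter sequences came from RefSeq tables of GRCm38.p6. A promoter sequence was found for 4 of the 5 genes, and the strand of Colgalt2 was taken from the deposited feature column. Runs joined hyper positions at most 100 bp apart. Lines were compared by a two-sided exact permutation test with Benjamini-Hochberg adjustment over 10 tests, and scripts were tested on simulated data (Python 3.11.15, pandas 2.3.3, numpy 2.4.6). The 2 lines of a kind are independent lines per the series' design, and their numbers only name them. The members, the 5 gene lists, the tests and the alternatives were chosen with earlier results of these data known. Named genes were the 5 members, genes overlapping their windows, the 2 promoters with the nearest hyper counts, and list members with a call.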

Additional observations from a re-analysis of the deposited data

How the results depend on the processing

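The replicate block and the 0 shared positions of Tlk1, which could not change, were set aside. Mean differences of iPSC minus gPSC lines then kept their direction in 53 of 57 alternatives. Differences in numbers of hyper positions did so in 33 of 50. Several of the 57 kept the same positions and so returned the same value. Examples are Colgalt2 with q at most 0.001 (−9.65 points, 12 positions) and Tlk1 with no opposite position within 1 bp (5.88 points, 13 positions). The 53 of 57 therefore overstates how far the direction was tried. Of the counts, 17 of 24 of positions hyper in all 5 libraries and 9 of 16 of promoters called stayed within 1.5 times. With no opposite position within 50 bp, 1 shared position remained in Vmn2r29 and its difference was −4.62 points. Averaged over all hyper positions of each line, the difference was −1.97 points in Vmn2r29 and 0.738 points in Gas2l2. Leaving out 1 line at a time gave −0.676 to 5.02 points in Pawr (lowest without iPSC 1), −16.4 to −2.9 in Colgalt2 (without gPSC 1 and without gPSC 2), 1.44 to 6.3 in Vmn2r29 (without iPSC 2 and without iPSC 1), −8.83 to −4.04 in Gas2l2 (without gPSC 1 and without gPSC 2) and 4.02 to 7.74 in Tlk1. The cause of these changes was not tested.

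The iPSC minus gPSC difference in numbers of hyper positions, at most 1.5 in size, changed easily. With a difference of at least 50 points it was 13 in Pawr, −2.5 in Colgalt2, −0.5 in Vmn2r29, 2 in Gas2l2 and 0 in Tlk1. With q at most 0.001 it was −0.5 in Pawr and 5.5 in Tlk1. In the promoter alone it was 0 in Colgalt2 and Tlk1 and 2.5 in Gas2l2, and within 2000 bp of the span −0.5 in Pawr and 0.5 in Gas2l2. With no opposite position within 50 bp it was −1 in Vmn2r29. Leaving out 1 line gave −1 to 2 in Pawr, 0 to 3 in Colgalt2, −2 to 4 in Vmn2r29 and −2.5 to 1.5 in Gas2l2.

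Positions hyper in all 5 libraries numbered 0 in Pawr, 2 in Colgalt2, 1 in Vmn2r29 and 1 in Gas2l2 at a difference of at least 50 points. They numbered 0 in Vmn2r29 with no opposite position within 50 bp, and 1 with q at most 0.001 and 3 in the promoter alone in Gas2l2. With at least 5 positions for a call, 533 promoters were called hyper in GSC, 84 in both iPSC lines, 107 in both gPSC lines and 31 in all 5 libraries. At least 50 points left 80 in both iPSC lines, 88 in both gPSC lines and 19 in all 5 libraries. At 50 points Pawr, Colgalt2 and Gas2l2 lost the call in all 5 libraries, and with every listed position required to be hyper Pawr, Vmn2r29 and Gas2l2 lost it. Tlk1 had no call in GSC under any of these settings.

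The fit with the replicate block left every difference as it was, for example 2.17 points in Pawr, and its smallest possible p is 0.5. Line numbers name independent lines, so the block pairs nothing. No value could be had in Pawr and Tlk1 at 50 points or more, or in Tlk1 for positions hyper in all 5 libraries. A coverage minimum could not be varied, since the tables hold no coverage. All results are limited by the lack of depth, of uncalled positions and of a second GSC line, and by the unstated handling of strands, whose part in the differences was not tested.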
